A study of Mus musculus with 4 samples.

Results

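The 10 germline genes Ddx4, Dazl, Mael, Tdrd1, Piwil2, Sycp1, Sycp3, Hormad1, Stag3 and Tex101 were followed across 4 arrays of mouse melan-a melanocytes, a cultured pigment cell line. The members were chosen by function around Ddx4, whose levels on these same 4 arrays were already known, and every probe set that the platform annotation assigns to them was taken. That gave 11 of 45101 probe sets, 2 for Dazl and 1 for each other gene. None of the 11 was shared with another gene symbol. All 4 cultures were of Hmhi melan-a cells kept for 14 days in starvation medium with dialyzed serum. The first culture was Hmhi cells without further addition, the second was Hmhi cells with 100 ng/ml EGF, the third was Hmhi-Miz1 kd cells (also described as Hmhi-pS-Miz1) with the same EGF, and the fourth was Hmhi-MYC-TA cells with the same EGF. The labels do not spell out Hmhi, pS or MYC-TA, and do not say whether the cells were clones. Each condition was 1 culture on 1 array, so no difference below could be tested and each compares 2 arrays.

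Germline genes are needed for making eggs and sperm and are kept silent in most body cells, in large part by DNA methylation of their CpG-rich promoters and by a Polycomb complex that contains E2F6, MGA, MAX, PCGF6 and L3MBTL2. Ddx4, also called Vasa, encodes an RNA helicase of germ granules, and Mael, Tdrd1 and Piwil2 encode proteins of the piRNA pathway that silences transposons there. Dazl encodes a germ cell RNA-binding protein. Sycp1 and Sycp3 encode proteins of the synaptonemal complex, Hormad1 a protein of the meiotic chromosome axis, Stag3 a subunit of the meiotic cohesin, and Tex101 a germ cell surface protein. Several of these genes are known as cancer-testis genes, because tumours can express them. The series title concerns Myc and Miz-1 in melanocyte senescence. E-boxes, the letters CACGTG, are the sites known to be bound by MYC-MAX and MGA-MAX pairs.

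The promoters of 3 genes are shown because Ddx4 was the only gene read far above the array median, Hormad1 carries the same motifs with a low reading, and Dazl carries none of them. The sequences are from RefSeq on GRCm38.p6, 250 bases up to the annotated start, 5′ to 3′ on the gene's own strand, and capitals mark the E-box CACGTG. Ddx4 is from chr13:112652311-112652560 on the minus strand, Hormad1 from chr3:95559427-95559676 on the plus strand, and Dazl from chr17:50293621-50293870 on the minus strand.
Ddx4: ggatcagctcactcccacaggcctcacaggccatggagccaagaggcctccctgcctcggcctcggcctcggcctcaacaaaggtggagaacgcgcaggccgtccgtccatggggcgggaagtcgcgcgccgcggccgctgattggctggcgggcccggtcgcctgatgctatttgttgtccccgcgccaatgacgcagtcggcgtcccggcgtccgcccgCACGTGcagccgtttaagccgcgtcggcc
Hormad1: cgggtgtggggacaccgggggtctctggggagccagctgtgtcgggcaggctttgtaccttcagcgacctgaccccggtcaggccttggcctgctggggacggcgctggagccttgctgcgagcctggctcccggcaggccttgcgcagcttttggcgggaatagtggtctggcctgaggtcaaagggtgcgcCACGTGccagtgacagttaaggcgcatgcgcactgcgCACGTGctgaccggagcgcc
Dazl: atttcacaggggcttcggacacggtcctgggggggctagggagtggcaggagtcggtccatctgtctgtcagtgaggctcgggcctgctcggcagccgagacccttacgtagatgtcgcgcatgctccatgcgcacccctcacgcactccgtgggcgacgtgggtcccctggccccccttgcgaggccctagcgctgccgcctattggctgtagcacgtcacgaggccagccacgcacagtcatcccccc

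An E-box near the start was frequent among these genes. The RefSeq table held windows of 300 bases, from 250 before to 50 after a start, for 9 of the 10 genes (12 windows), and Piwil2 had no entry. CACGTG was in a window of 7 of the 9 genes, Ddx4, Mael, Tdrd1, Sycp1, Sycp3, Hormad1 and Stag3, and not in those of Dazl and Tex101. It was found in 8.09% of all genes with a window, and among genes with a window of at least 15 CpG, the fewest in the best window of any of the 9, 12.0% had it. Its first base lay at -29 in Ddx4, counted from the annotated start, at -57 and -20 in the first window of Hormad1, and at -64 and -43 in Sycp3. The motif is a palindrome, so both strands give the same matches.

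The letters GCGGGA, the core of sites known for the E2F family, were found on either strand in 6 of the 9 genes, against 22.05% of all genes and 47.2% of those with CpG-rich windows. The longer GGCGGGAA, which contains them, was in Ddx4 at -137 and in Hormad1 at -96. It was in 2.52% of all genes and in 5.30% of those with CpG-rich windows. The Ddx4 window held 38 CpG, the most of the 12 windows, and 4.95% of all windows held at least as many. The median over all windows was 7. Ddx4 and Hormad1 thus shared both motifs, while their readings on the arrays behaved differently, as described below. These matches describe letters, and the arrays measure neither binding nor methylation.

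**Figure D1:**
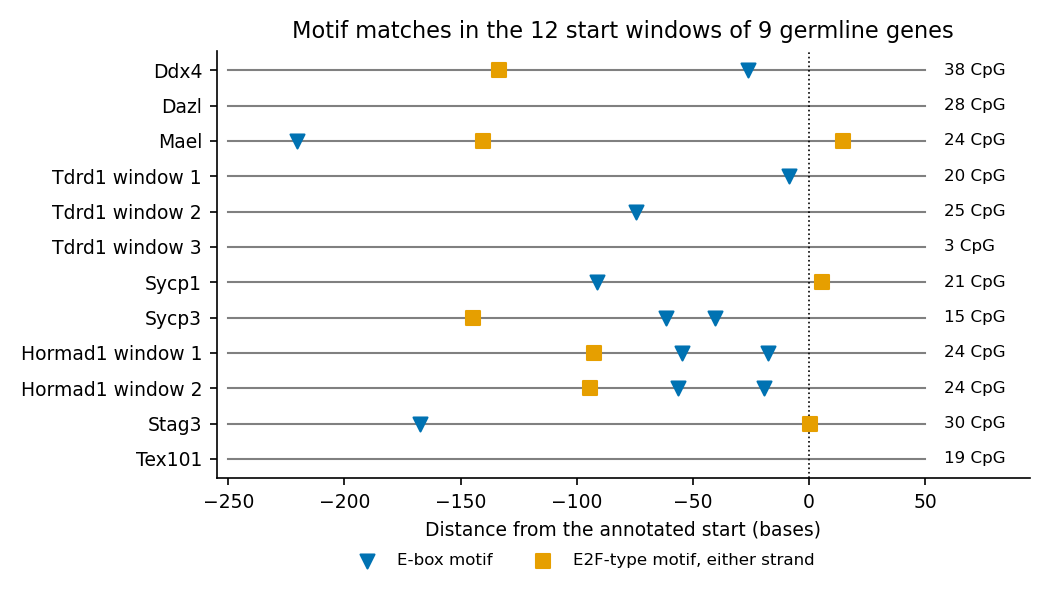
Positions of the E-box (triangles) and of the 6-base E2F-type motif on either strand (squares) in the 12 RefSeq start windows of 9 germline genes. The horizontal axis is the distance from the annotated start in bases, and the number of CpG in each window is written at the right. E-boxes are in windows of 7 genes, and Dazl and Tex101 have neither motif.

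Levels are the deposited signals, taken as log2. Each array had a median of 6.66 over its probe sets, and the sorted values of the 4 arrays lay within 0.004 of each other, so the arrays had been equalized before deposit. Melanocyte genes were well read, with Sox10 at 12.96 to 13.37 and Mitf at 9.65 to 10.81, and 8 of 12 melanocyte markers were at or above the median on every array. Tyr, which encodes the key enzyme of melanin synthesis, was below the median on every array, at 4.62 to 5.63. Other pigment genes differed between the arrays where Ddx4 did. Against Hmhi EGF, Oca2 and Slc45a2, both melanosome transporters, differed by -3.16 and -2.70 in MYC-TA, and Dct, a melanin synthesis enzyme, by -2.07 in the Miz1 kd-labelled array. The linear signal of the 12 markers summed to 37929 for Hmhi starved, 27854 for Hmhi EGF, 32260 for the Miz1 kd-labelled array and 22894 for MYC-TA. The sum was lowest in MYC-TA, and its part in the Ddx4 differences was not tested.

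In the Miz1 kd-labelled array the Miz-1 gene Zbtb17 was not reduced. Its brighter set read 8.73, 8.72, 9.08 and 8.71 in Hmhi starved, Hmhi EGF, the Miz1 kd-labelled array and MYC-TA, the order used throughout. The transcript of the target thus goes against that label, and directions for that array are those of the array as labelled. The mouse Myc set read 10.64, 10.60, 10.79 and 9.78 and so was lowest in MYC-TA. Since the labels do not say what MYC-TA is, or whether this set would read it, the set cannot check that label. Of 3 sets for Mycn, a relative of Myc, 1 read 13.32, 13.53, 7.57 and 13.68, low in the Miz1 kd-labelled array alone. Another read 5.564, 6.968, 6.843 and 7.222. The last read 5.882, 5.632, 5.845 and 5.789, below the median on every array. Neither of these was lowest in the Miz1 kd-labelled array, so the sets of Mycn differ on this. Whether labels were exchanged cannot be settled from 4 arrays, so MYC-TA below also means the array so labelled.

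Ddx4 was the only one of the 10 genes with a wide range. With a single probe set, it stood at 9.17 in Hmhi starved cells, at 6.94 in those with EGF, at 5.82 in the Miz1 kd-labelled array and at 9.66 in MYC-TA. Hmhi starved and MYC-TA were high, Hmhi EGF was just above the array median, and the Miz1 kd-labelled array was below it. The range was 3.84 on the log2 scale, and 108 of 45037 non-control probe sets (0.240%) had a range at least as wide. Ddx4 was listed for these values, so they describe it and support nothing further.

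Between Hmhi EGF and Hmhi starved, Ddx4 differed by -2.23 on the log2 scale, which is 4.69-fold lower with EGF. This was the 149th most negative of 23728 differences. Only probe sets whose brighter reading of the pair reached the median of its array were compared. A gene was counted as apart at 2-fold, a log2 difference of at least 1 in size. By that count 1 of 11 germline sets was lower and 0 were higher, where 5.66% of all sets in the comparison were at least 2-fold lower, and only Ddx4 and Stag3 passed the level filter. Nothing about the group is read from that count, because Ddx4 was chosen with this difference known.

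MYC-TA with EGF read 6.61-fold higher in Ddx4 than Hmhi EGF, a log2 difference of 2.72. Among 23459 probe sets compared, 5 had a larger positive difference. Ddx4 was the 1 germline set at least 2-fold higher, where 1.26% of all sets were, and no other germline set passed the level filter. Technical spread, taken as the SD between probe sets of the same gene, was 0.25 in this comparison, and it does not include differences between cultures.

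The Miz1 kd-labelled array read 2.17-fold lower in Ddx4 than Hmhi EGF, a log2 difference of -1.12, against a technical SD of 0.22. It was the 1 germline set at least 2-fold lower, where 2.12% of all sets were. Because 5.82 lies below the array median, background limits the size of this difference. With the filter raised to the 75th percentile Ddx4 left this comparison and 0 germline sets were counted.

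The comparisons without the Hmhi EGF array had the same order. MYC-TA exceeded the Miz1 kd-labelled array 14.4-fold in Ddx4, a log2 difference of 3.84 against a technical SD of 0.41, where 6.41% of sets were at least 2-fold higher. It differed by -3.35 between the Miz1 kd-labelled array and Hmhi starved, where 7.91% of sets were at least 2-fold lower. Both differences rest on the same reading below the array median, so background limits their size too. MYC-TA and Hmhi starved were the nearest pair, with MYC-TA higher by 0.49 against a technical SD of 0.31. In that pair 36.1% of 23887 sets were at least as far apart, and 0 of 11 germline sets were 2-fold apart, where 13% of all sets were. The order of MYC-TA and Hmhi starved is therefore not settled by these arrays. These comparisons share arrays with each other and are not independent.

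**Figure D2:**
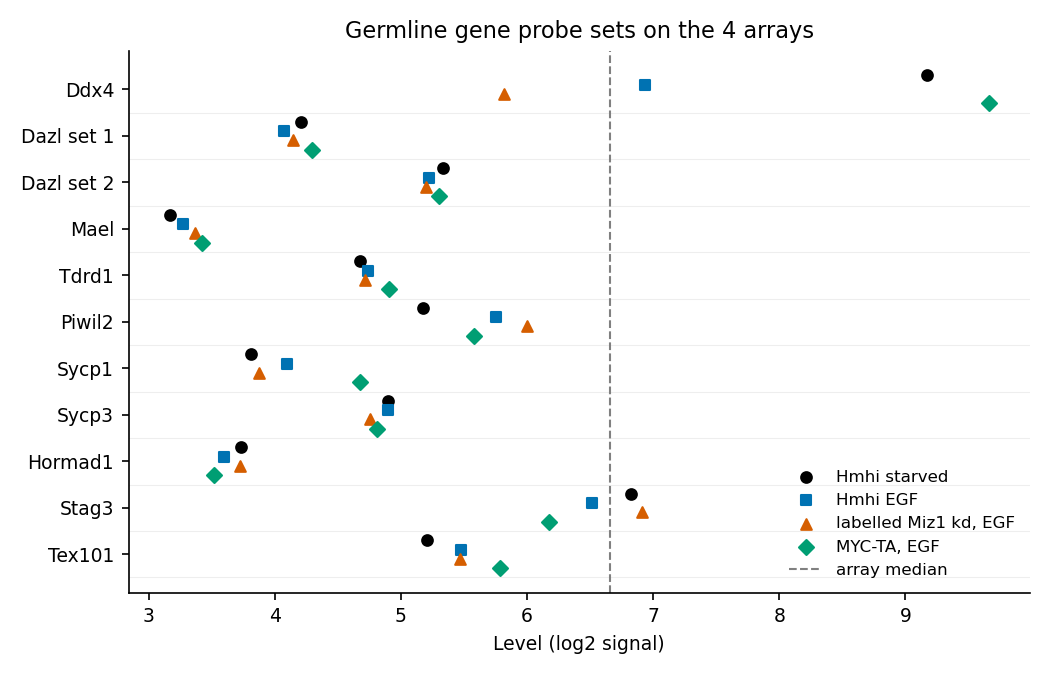
Level of each of the 11 germline probe sets (log2 signal, horizontal axis) on the 4 arrays, 1 point per array, with the array median as a dashed line. Ddx4 runs from 5.82 to 9.66, whereas the other 10 sets each span at most 0.862 and only Stag3 among them reaches the median.

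The sets of Mael, Tdrd1 and Piwil2, partners of Ddx4 in germ granules, did not show its pattern. All were below the median on every array, so a shared pattern could have gone unread. Mael read 3.17, 3.28, 3.37 and 3.42, and Tdrd1, a Tudor domain scaffold, read 4.67, 4.74, 4.71 and 4.90. Both were far below the array median of 6.66 on every array. Piwil2, the Argonaute family protein that carries piRNAs, read 5.172, 5.752, 6.003 and 5.578, also below the median throughout. Its lowest value was in Hmhi starved, where Ddx4 was high, and its highest was in the Miz1 kd-labelled array, where Ddx4 was lowest.

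Dazl had 2 probe sets, and both stayed low. The brighter read 5.34, 5.22, 5.20 and 5.30, and the dimmer read 4.21, 4.07, 4.14 and 4.30. Their ranges were 0.138 and 0.223. These values show no counterpart of the Ddx4 difference in the other well-known germ cell RNA regulator of the group. At this low signal one could be missed.

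Among the meiotic chromosome genes, Sycp3 read 4.90, 4.90, 4.76 and 4.81, and Hormad1 read 3.73, 3.60, 3.72 and 3.52. Both were below the median on all arrays and varied by 0.137 and 0.210. Sycp1 read 3.81, 4.10, 3.87 and 4.68, so it was highest in MYC-TA, by 0.58 over Hmhi EGF, on a probe set far below the median. Its range of 0.862 was the widest of the 10 sets other than that of Ddx4.

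Stag3 was the other gene that reached the median. It read 6.83, 6.51, 6.91 and 6.18, so Hmhi starved and the Miz1 kd-labelled array lay just above 6.66 and Hmhi EGF and MYC-TA just below it. Its lowest value was in MYC-TA, where Ddx4 was highest. Against the Miz1 kd-labelled array, MYC-TA differed by -0.74 in Stag3, against a technical SD of 0.41. Tex101 read 5.21, 5.48, 5.47 and 5.79, below the median on every array.

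In the group, 9 of the 11 sets, from 8 genes, were below the median on all 4 arrays, where 45.3% of all non-control sets were. The ranges of the 9 ran from 0.137 to 0.862 with a median of 0.23. Over all 20398 non-control sets that were below the median on every array, the median range was 0.288 and the 90th percentile 0.624. Sycp1 and Piwil2, at 0.862 and 0.831, were beyond that 90th percentile, and the other 7 sets were within it. A low signal does not show that a transcript was absent, since probe sets differ in sensitivity.

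**Figure D3:**
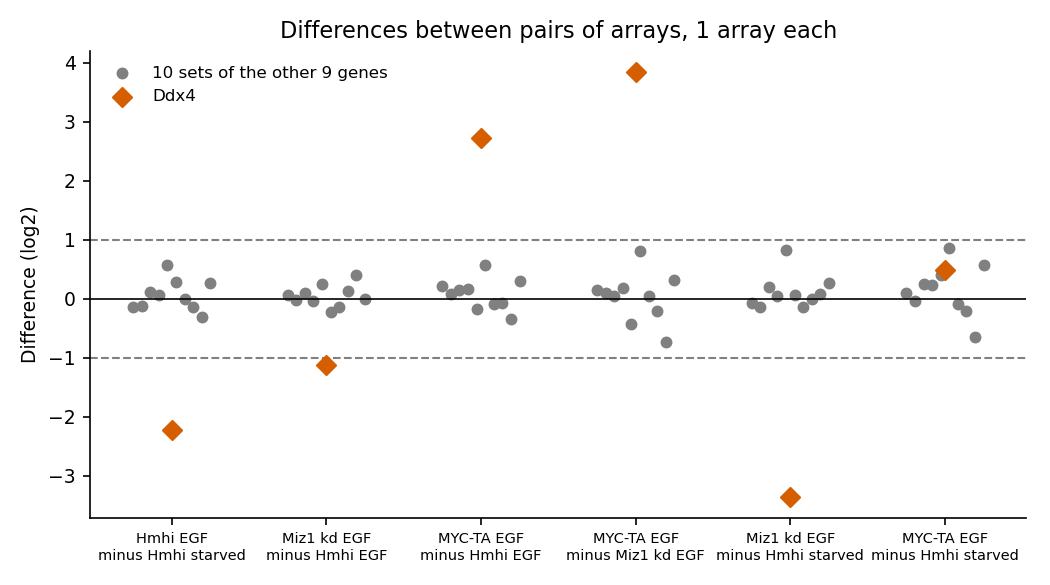
Log2 difference between 2 arrays (vertical axis) in each of 6 comparisons, for Ddx4 (diamonds) and for the 10 probe sets of the other 9 genes (circles), with dashed lines at 2-fold. Ddx4 lies beyond 2-fold in 5 comparisons and at 0.49 in the last, and no other set lies beyond it in any.

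Genes of the other lists were read by their brightest set. For such readings, the share of all genes below the median on every array was not computed. Over all non-control sets that share was 45.3%. Of 20 other genes of the piRNA pathway measured, 13 were below the median on every array. Between MYC-TA and Hmhi EGF, 1 of 6 that passed the filter was at least 2-fold apart, where 2.95% of all genes were, and the median of the 6 was 0.11 against 0.045 for all genes. That gene was Tdrkh, a mitochondrial Tudor protein of the pathway, which read 7.18, 6.97, 6.11 and 8.04. It was thus lowest in the Miz1 kd-labelled array and highest in MYC-TA, as Ddx4 was. Tex15 ran the same way with 7.44, 7.12, 6.51 and 7.92, which was below 2-fold against Hmhi EGF. Exd1, another gene of the pathway, ran the other way with 8.07, 8.14, 8.74 and 7.54, above the median on every array. The difference between MYC-TA and the Miz1 kd-labelled array was -1.20 in Exd1, 1.93 in Tdrkh and 1.40 in Tex15. With the filter at the 75th percentile 0 genes of the list were counted between MYC-TA and either of the other EGF arrays. Between Hmhi EGF and Hmhi starved 0 of 7 were 2-fold apart, where 12.9% of all genes were, and between the Miz1 kd-labelled array and Hmhi EGF 0 of 7, where 2.79% were.

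Of 29 other meiotic genes measured, 21 were below the median on every array. Rec114, which acts in making meiotic DNA breaks, read 7.75, 4.87, 4.53 and 4.82. Like Ddx4 it was lower with EGF than in Hmhi starved, by a log2 difference of -2.88, but MYC-TA stayed low with the other EGF arrays. In that comparison 2 of 7 genes of the list were 2-fold apart, where 12.9% of all genes were. Rec114 was lower, and the other, Sgo2a, was higher by 1.055. As a mean over its 2 sets Rec114 did not pass the level filter and the count was 1. A 75th percentile filter left a count of 0. Trip13, a remodeller of HORMA proteins that mitotic cells also use, read 7.71, 8.17, 7.66 and 9.43, and was the 1 of 6 genes of the list at least 2-fold apart between MYC-TA and Hmhi EGF, where 2.95% of all genes were. As a mean over its 3 sets this difference was 0.89, so that the count became 0. Mei4, a partner of Rec114, read 4.14, 4.92, 4.47 and 5.97, below the median throughout.

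Of 21 other germ cell specification and RNA-binding genes, 12 were below the median on every array, Dppa3, Prdm14, Pou5f1 and Lin28a among them. Between Hmhi EGF and Hmhi starved, 3 of 7 that passed were at least 2-fold higher, where 7.98% of all genes were. They were Id4, a helix-loop-helix inhibitor, Taf4b, a TFIID subunit, and Gfra1, a GDNF receptor. As a mean over its sets the Gfra1 difference was 0.90, so that the count became 2. Id4 read 7.42, 11.01, 10.86 and 10.11 and Taf4b 8.51, 10.02, 10.10 and 9.44, so both ran against Ddx4 between the Hmhi arrays. Between the Miz1 kd-labelled array and Hmhi EGF 1 of 9 was 2-fold apart, where 2.79% of all genes were. That was Gfra1, at 8.93, 10.18, 8.95 and 9.96. It differed by -1.23, in the direction of Ddx4, and by -0.95 as a mean over its sets. Between MYC-TA and Hmhi EGF 0 of 7 were 2-fold apart, where 2.95% of all genes were. Id4, Taf4b and Gfra1 are not restricted to germ cells.

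The summed signals of later sperm genes, testis somatic cell markers and pluripotent cell markers did not run in the order of Ddx4. Of 21 later sperm genes, 13 were below the median on every array, with Tnp1 at 3.52 to 3.80 and Acrv1 at 4.53 to 4.87. Their summed linear signal was 2607, 2813, 3205 and 2893 on the 4 arrays, so it was lowest in Hmhi starved and highest in the Miz1 kd-labelled array. The list includes Odf2 and Crem, which many cells use. Odf2 was the brightest of the list on every array, at 10.17 to 10.67, and so weighed most in the sum. The 10 measured Sertoli and Leydig cell markers summed to 814, 954, 1049 and 983, and 5 of them were below the median on every array. The 6 pluripotent cell markers summed to 402, 485, 535 and 508, with 3 of the 6 below it.

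The sums of fibroblast and of keratinocyte markers did run in the order of Ddx4. The 8 fibroblast markers summed to 3671, 3103, 1761 and 5375, highest in MYC-TA and lowest in the Miz1 kd-labelled array. Of the 8, only Dcn, a matrix proteoglycan, had that order by itself, at 11.50, 10.35, 9.45 and 11.56. Dcn was also the brightest of the 8 on every array and so weighed most in the sum. Col3a1 read 6.59, 7.21, 6.25 and 9.69. Postn, a matrix protein, read 7.91, 10.15, 8.85 and 10.03, lowest in Hmhi starved, and Pdgfra, a growth factor receptor, read 7.40, 8.21, 8.24 and 7.93, highest in the Miz1 kd-labelled array. Col1a1, Lum and Thy1 were below the median on every array, at 4.97 to 6.03. Col1a2 reached it only in Hmhi starved, at 6.97, and Dcn, Postn and Pdgfra were above it on every array. The 6 keratinocyte markers summed to 561, 551, 538 and 603, a narrow range, and 4 of them were below the median on every array. None of the 6 had the full order of Ddx4 by itself. Cdh1, at 6.17, 5.38, 4.91 and 6.05, had it except that Hmhi starved was slightly the highest. It was below the median on every array. In bulk RNA, fewer cells of a type and less RNA per cell cannot be told apart. The part of these markers in the Ddx4 difference was not tested. The 18S rRNA control sets also differed, with medians of 12.25, 13.09, 12.86 and 12.88, lowest in Hmhi starved, and their part was not tested either.

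Of 28 measured genes listed as known repressors of germline genes, 25 were at or above the median on every array. The share of all genes that were was not computed. The list also holds Tet1, Tet2 and Tet3, which are not repressors as a class, and its counts and median include them. Between Hmhi EGF and Hmhi starved, 3 of 27 that passed were at least 2-fold higher, where 7.98% of all genes were. Nothing about the list is read from that count. Their median was 0.19 against 0.006 for all genes. The 3 were Dnmt1, the maintenance DNA methyltransferase, at 9.65, 10.94, 11.04 and 11.14, Uhrf1, which recruits it, at 8.88, 10.01, 9.88 and 10.74, and Hells, a chromatin remodeller needed for DNA methylation, at 8.26, 9.54, 9.07 and 10.85. All 3 read higher with MYC-TA than without it under EGF, as Ddx4 did, although the 0.20 of Dnmt1 was within the technical SD of 0.25. These genes are also used in S phase.

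Between MYC-TA and Hmhi EGF only Hells of 26 genes of this list was 2-fold apart, where 2.95% of all genes were. It differed by 1.32 on its brightest set and by 0.97 as a mean over its sets. Between the Miz1 kd-labelled array and Hmhi EGF 0 of 26 were, where 2.79% of all genes were. Both counts are near those shares. Of the E2F6-containing complex, Mga read 9.07, 9.33, 9.73 and 8.45 on its brightest set. It was lowest in MYC-TA and highest in the Miz1 kd-labelled array, the reverse of Ddx4 among the EGF arrays, and its difference between those 2 arrays was -1.27. As a mean over its sets that difference was -0.62. Between the same 2 arrays Hells and Rnf2, also of the list, were higher in MYC-TA, by 1.79 and 1.06. Rnf2 read 10.61, 10.36, 9.76 and 10.82, in the order of Ddx4. With means over sets only Hells stayed at least 2-fold apart there. Max, on 1 set, read 7.96, 7.13, 7.03 and 7.91, which is the order of Ddx4 except that Hmhi starved was slightly the highest. E2f6 read 9.02, 8.85, 8.71 and 9.17, also in the order of Ddx4, and Pcgf6 read 9.71, 10.40, 10.64 and 10.93. Each of these single-array differences is a description.

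The neighbours of Ddx4 on its chromosome, examined after its values were seen, did not vary with it. The nearest gene with a probe set on one side is Il31ra, a cytokine receptor, whose brighter set read 6.03, 6.18, 6.37 and 6.50. On the other side is Slc38a9, a lysosomal amino acid transporter, whose brightest set read 8.42, 8.41, 8.56 and 8.40. Neither was 2-fold apart in any of the comparisons on these sets. Both Il31ra sets were below the array median on every array, so low signal limits what they can show.

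The probe sets with the pattern nearest to Ddx4 belonged to genes of other functions. Likeness was the Euclidean distance between log2 profiles over the 4 arrays, each with its own mean removed, among 5461 candidate sets with a range of at least 1. The 5 nearest were sets of Acta2, Nfix, Gnai1 (2 sets) and Ankrd1, at distances from 0.65 to 1.08. Acta2, smooth muscle actin, read 11.81, 9.70, 8.86 and 11.80. Nfix, a transcription factor, read 10.56, 8.63, 7.26 and 10.04. Gnai1, a G protein subunit, read 10.55, 8.77, 7.10 and 10.10 on its brighter set, and Ankrd1, a muscle ankyrin repeat protein, 7.15, 4.71, 4.53 and 6.86. By likeness over 4 arrays nothing is said about shared control. None of the 4 genes is in the germline lists.

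**Figure D4:**
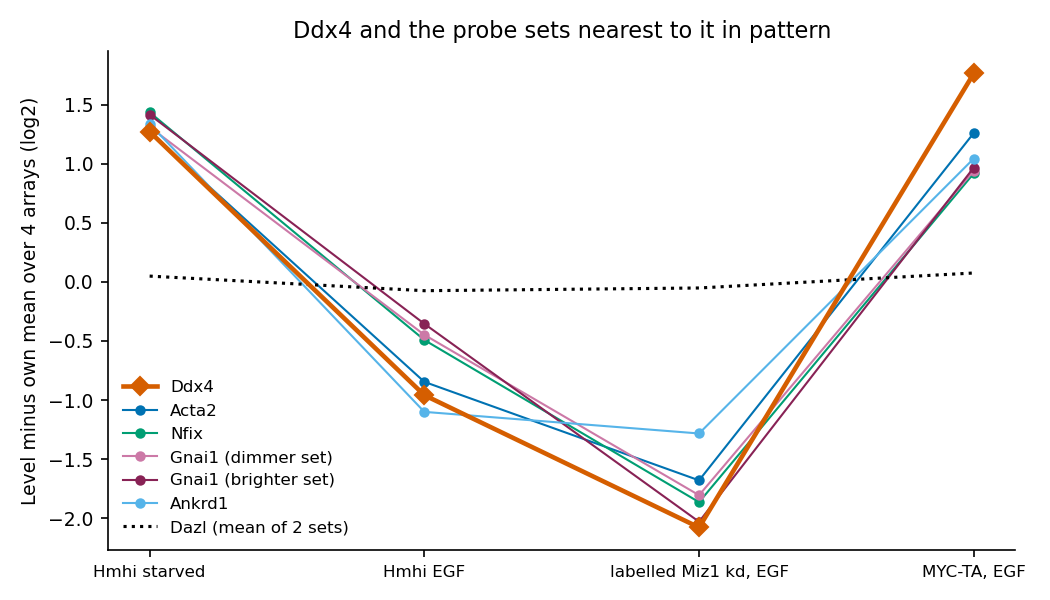
Level minus its own mean over the 4 arrays (log2, vertical axis) for Ddx4, the 5 probe sets nearest to it and the mean of the 2 Dazl sets, with lines that only join the points of a set. Ddx4 and its 5 nearest sets are high in Hmhi starved and MYC-TA and low in Hmhi EGF and the Miz1 kd-labelled array, and Dazl is flat.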

How the data were processed

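Total RNA of 4 cultures was measured on Affymetrix mouse expression arrays. Per the labels' protocols, 100 ng of RNA per culture was turned into biotinylated cRNA. The deposited values lie between 2.94 and 15.12 and were read as log2; the log base, summarization and normalization are not given in the sources used here. Equal sorted columns hide any shift common to all genes. Precision is limited by having 1 array per condition, and no test was run. The members and gene lists were chosen with earlier results of these data known.

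Platform annotation of 2016 named the probe sets, with 34945 sets of 1 symbol, 932 of several and 9160 unnamed among the non-control sets. Matching by Entrez identifier to RefSeq changed 0 symbols. Each listed gene was read by its set with the highest mean, and all sets of the 10 germline genes were kept. Sets were compared where the brighter reading of a pair reached its array's median. Genes were named if they were germline members, among the nearest sets in pattern, or among the up to 3 largest differences of a list; other named genes were chosen after their values were seen. The alternatives were a common median, quantile normalization, loess with span 0.4, the level filter left out or raised to the 75th percentile, plain _at sets and a mean over the sets of a gene. The counting was tested on simulated data. Python 3.11.15, pandas 2.3.3, numpy 2.4.6, statsmodels 0.14.6 and matplotlib 3.10.9 were used.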

Additional observations from a re-analysis of the deposited data

How the results depend on the processing

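The 6 counts of germline probe sets and the 2 Ddx4 differences that were recomputed under 7 alternatives kept their value or direction in 55 of 56 cases. The exception was the comparison of the Miz1 kd-labelled array with Hmhi EGF, in which the filter at the 75th percentile left 0 germline sets at least 2-fold apart, because Ddx4 then fails the filter. The Ddx4 difference of MYC-TA minus Hmhi EGF ran from 2.70 to 2.73, and that of Hmhi EGF minus Hmhi starved from -2.23 to -2.21. Much of this was fixed beforehand. Ddx4 has 1 plain _at set, so the filter settings, plain _at sets and means over sets could not change the size of its differences. The arrays were already equalized, so a common median and quantile normalization could change little. Of 699 values for the other lists and genes, 48 moved, 30 of them with a mean over the sets of a gene. A reversal was counted only for differences of at least 2-fold, and 0 were found. Smaller differences could change sign uncounted, as in Trip13 between the Miz1 kd-labelled array and Hmhi starved. That one went from -0.058 to 0.119 with plain _at sets. No paired analysis was possible because there was a single array per condition, so none could be left out either. Another background correction was not run, since scanner files were not used here. Ddx4 rests on 1 probe set, so no second set bears on it.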
